A study of Mus musculus with 6 samples.

Results

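The genes described are 10 of the liver's response to bile acids: Nr1h4, Nr0b2, Nr1i2, Nr1i3, Nr5a2, Nr1h3, Rxra and Hnf4a, which encode nuclear receptors, and Fgfr4 and Klb, which encode a membrane receptor and its co-receptor. They were chosen by gene symbol, and all 10 were found among the 24421 symbols of each count table. Liver total RNA was sequenced from mice aged 7 months of the Townes sickle cell line, 3 libraries from AS mice and 3 from SS mice. The labels give the AS strain as Hbatm1(HBA)Tow with Hbbtm2(HBG1,HBB*)Tow over Hbbtm3(HBG1,HBB)Tow, so the AS genotype pairs a sickle allele with a normal human beta-globin allele, and the SS strain as Hbatm1(HBA)Tow with Hbbtm2(HBG1,HBB*)Tow alone. Mice of both genotypes therefore had human globin genes in place of the mouse ones, and the controls also carried a sickle allele. No sex, litter, batch or treatment is given, and nothing says that replicates are separate animals, so every p-value reflects only how far these libraries scatter, which may be technical.

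Nuclear receptors are transcription factors whose activity is set by small lipophilic ligands. FXR (Nr1h4), bound to its partner RXR alpha (Rxra), is the main sensor of bile acids in the hepatocyte and switches on Nr0b2, whose product SHP has no DNA-binding domain and represses genes by binding other receptors, above all LRH-1 (Nr5a2) and HNF4A. LRH-1 and HNF4A drive the bile acid synthesis genes Cyp7a1 and Cyp8b1, so that bile acids limit their own production. In a parallel route, bile acids in the gut release FGF15, which reaches FGFR4 and beta-klotho (Klb) on hepatocytes and lowers synthesis too. PXR (Nr1i2) and CAR (Nr1i3) sense foreign compounds and toxic bile acids and induce detoxifying enzymes, and LXR alpha (Nr1h3) senses oxysterols.

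Upstream sequences of Nr0b2, Nr1h4 and Nr5a2 are shown because these genes form the loop in which FXR induces SHP and SHP represses LRH-1. Each run holds the 250 bases before a transcript start in RefSeq (GRCm38.p6), 5′ to 3′ on the gene's strand: chr4:133553126-133553375 on the plus strand for Nr0b2, and, on the minus strand, chr10:89506659-89506908 for Nr1h4 and chr1:136960449-136960698 for Nr5a2. Capitals mark the LRH-1 core TCAAGG or the nuclear receptor hexamer AGGTCA, on either strand.

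Nr0b2: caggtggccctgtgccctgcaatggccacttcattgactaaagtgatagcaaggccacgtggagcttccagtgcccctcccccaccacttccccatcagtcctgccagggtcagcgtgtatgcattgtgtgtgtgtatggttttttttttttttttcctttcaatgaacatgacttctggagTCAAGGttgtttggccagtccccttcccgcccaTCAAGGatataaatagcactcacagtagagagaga

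Nr1h4: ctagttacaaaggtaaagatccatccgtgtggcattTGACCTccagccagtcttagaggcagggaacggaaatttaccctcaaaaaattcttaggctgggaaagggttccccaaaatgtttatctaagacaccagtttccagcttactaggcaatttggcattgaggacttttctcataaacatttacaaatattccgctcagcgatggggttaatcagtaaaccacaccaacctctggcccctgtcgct

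Nr5a2: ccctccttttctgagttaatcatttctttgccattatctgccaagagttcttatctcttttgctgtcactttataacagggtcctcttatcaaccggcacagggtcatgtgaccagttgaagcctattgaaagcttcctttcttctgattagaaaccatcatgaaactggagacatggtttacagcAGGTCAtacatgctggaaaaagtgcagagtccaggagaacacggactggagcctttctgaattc

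The Nr0b2 window held TCAAGG 2 times, starting 68 and 35 bases before the transcript start. Of 32851 such windows, 12.5% held this core at least once and 0.922% held it at 2 or more places. Nr0b2 was the 1 gene of the 10 whose RefSeq window or windows (14 in all) held it. AGGTCA stood in 3 of the 14 windows, those of Nr1h4 (starting 214 bases before the start), Nr5a2 (64 bases) and a downstream start of Rxra, against 14.0% of all windows. The Nr1h4 window lies within the gene's annotated span (89454234 to 89533585 on chromosome 10), so it too precedes a downstream start. None of the 14 held AGGTCANTGACCT, the inverted repeat that FXR with RXR prefers, which 2 of the 32851 windows held, or the direct repeat AGGTCANAGGTCA, which 11 held. Both strands were searched, and no base in these windows belonged to both TCAAGG and AGGTCA. A match is a description of the letters and not evidence of binding.

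None of the 10 genes passed the test between SS and AS liver. A gene was called at a Benjamini-Hochberg adjusted p under 0.05 by edgeR's quasi-likelihood test over 12622 genes with enough reads, which all 10 had. The share of all genes called was 0.967%, with 0.911% in the higher and 0.0555% in the lower direction. By DESeq2 it was 2.57%. No member had an unadjusted p under 0.05 by edgeR, against 12.7% of all genes tested, and none was called under any of the 18 other settings, DESeq2 and limma-voom included, where up to 3 members had an unadjusted p under 0.05. The median log2 fold change of the 10, SS over AS, was -0.09, with 7 fitted values below and 3 above 0, against 0.08 for all genes tested. Of all genes tested, 56.3% had fitted values above 0. In bulk tissue, fewer cells of a type and less RNA per cell cannot be told apart.

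Gene reads ran from 6670011 to 13700194 per library, and member counts from 67 reads (Nr5a2 in SS replicate 1) to 8564 (Hnf4a in SS replicate 3). AS replicate 1 and SS replicate 3 stood apart in earlier results of these data, and had the lowest and highest TMM scaling factors (0.834 and 1.21). SS replicate 1 had 53.9% of its records outside annotated genes, against 40.7% to 43.8% in the other 5 libraries. Hepatocyte markers were present in all libraries. All 14 had reads, but Ass1 had only 1 to 5 per library and was not tested. The summed level of the markers was 111061 to 159607 CPM (gene reads brought to a common library size with TMM factors) in AS and 91017 to 124125 CPM in SS. Of the 13 tested, 0 were called and all 13 had lower fitted values (median log2 ratio -0.45). Of 10 red cell precursor markers tested 4 were called, all higher in SS (summed level 46.4 to 65.0 CPM in AS and 249 to 508 CPM in SS), as were 5 of 8 recruited macrophage markers (155 to 238 and 231 to 587 CPM) and 5 of 8 dividing cell markers (7.77 to 11.98 and 83.7 to 143 CPM). Of the other lists, 2 of 6 neutrophil, 2 of 6 cholangiocyte and 2 of 9 stellate cell markers tested were called higher, and 0 of 9 Kupffer cell, 0 of 8 endothelial and 0 of 4 lymphocyte markers were called. All 6 cholangiocyte markers tested had higher fitted values, but unevenly. Cd24a, which was called, had a log2 ratio of 3.03, whereas Krt19 and Epcam, which were not, had 0.33 and 0.21. Gata1 (red cell precursors) and Ltf and Elane (neutrophils) were among the markers with no reads in AS. Their part in the values that follow was not tested.

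**Figure D1:**
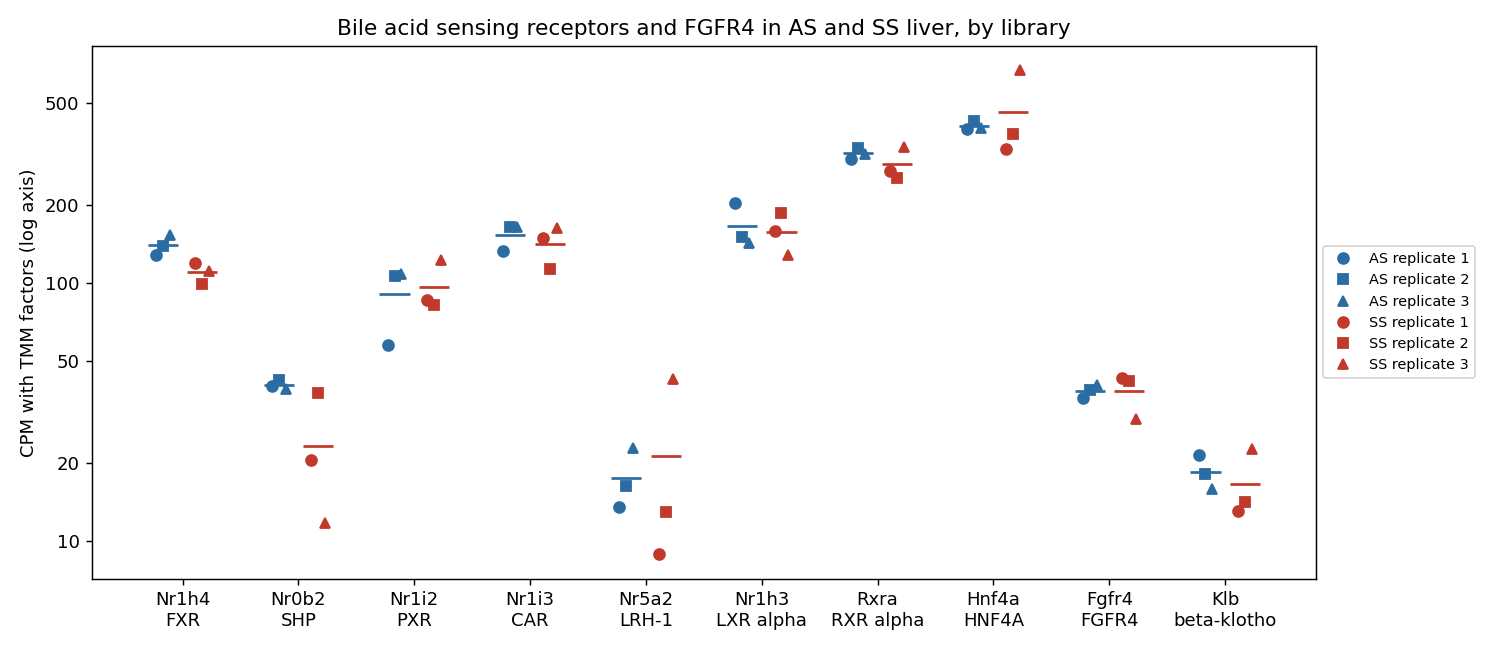
CPM of the 10 genes on a log axis, with AS libraries in blue, SS libraries in red, a symbol for each replicate and a bar at each group's mean. Nr1h4 and Nr0b2 are the 2 genes whose groups do not overlap, and SS replicate 3 lies highest for Nr5a2 (42.3 CPM) and Hnf4a (670.1 CPM).

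FXR and its target SHP were the 2 members in which every SS library lay below every AS library in TMM-scaled CPM. Such a gap, in this direction, was found in 9.04% of all genes tested. It depended on the scaling: in TPM, which is not TMM-scaled, both genes overlapped, Nr1h4 with 101 to 151 TPM in AS and 100.01 to 166 TPM in SS, and Nr0b2 with 63.9 to 78.9 and 35.2 to 76.9 TPM. Nr1h4 (chromosome 10, 89454234 to 89533585, minus strand, mm10) had 128, 139.7 and 153 CPM in AS replicates 1, 2 and 3, and 119.7, 99.4 and 112 CPM in SS replicates 1, 2 and 3. The highest SS library lay just under the lowest AS library. Its log2 ratio was -0.35 (SE 0.229, 95% interval -0.86 to 0.16, edgeR's adjusted p = 0.540). In TMM-scaled CPM it was the steadiest of the 10 in SS, with a coefficient of variation (CV, the SD as a share of the mean) of 9.25% there and 8.995% in AS. This too depended on the scaling: in TPM the SS mean and SD were 133 and 32.8 for Nr1h4, against 169 and 7.44 for Nr1h3. With any 1 library left out the log2 ratio of Nr1h4 stayed between -0.42 and -0.29. It was -0.07 without scaling factors and -0.02 with hepatocyte marker scaling.

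Nr0b2 (chromosome 4, 133553376 to 133556536, plus strand) had 39.8, 42.04 and 38.8 CPM in AS. In SS replicates 1, 2 and 3 it had 20.6, 37.6 and 11.7 CPM. The AS libraries were nearly level, with a CV of 4.07%, whereas the SS libraries spread over a CV of 56.6%, and SS replicate 2 was close to the AS libraries. The log2 ratio was -0.79 (SE 0.376, 95% interval -1.62 to 0.05, edgeR's adjusted p = 0.421, unadjusted p = 0.0616). It was -0.47 without SS replicate 3 and -1.34 without SS replicate 2, and the lowest adjusted p in any fit that left out 1 library was 0.182. Counted within each library, which needs no scaling between libraries, Nr0b2 had 31.1, 30.1 and 25.3 reads per 100 Nr1h4 reads in AS replicates 1, 2 and 3. The SS ratios were 17.2, 37.8 and 10.4. The SS libraries thus lay on both sides of the AS range.

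Other sensors of bile acids, and the FXR-like gene Nr1h5 that was listed with them, were scarce. Gpbar1, the membrane bile acid receptor, had 0 reads in all 6 libraries, and Vdr, the vitamin D receptor, had none in AS. Nr1h5, a second FXR-like gene that mice keep, had 1.73, 3.22 and 3.93 CPM in AS and 8.05, 5.29 and 4.93 CPM in SS. Its groups did not overlap, as in 12.1% of all genes tested in this direction, and its log2 ratio of 1.03 (SE 0.466) was not called (edgeR's adjusted p = 0.397). S1pr2, a sphingosine phosphate receptor that conjugated bile acids also engage, had a log2 ratio of 0.90 (SE 0.432, edgeR's adjusted p = 0.423).

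**Figure D2:**
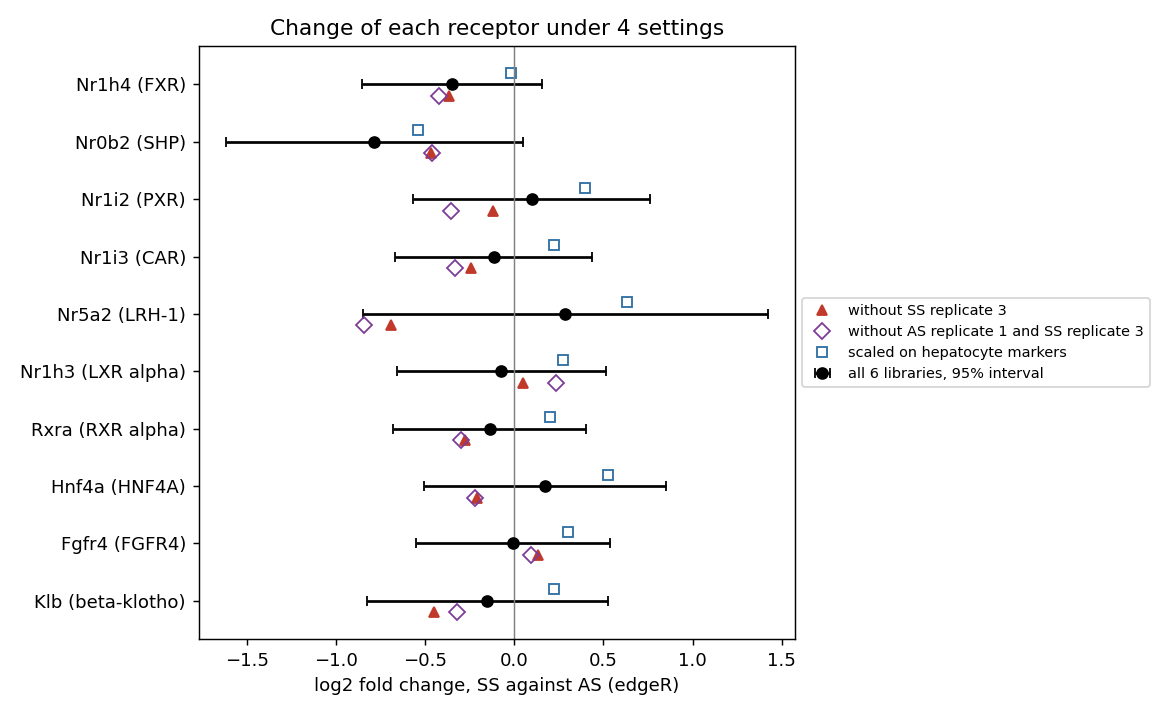
Log2 fold change of each gene, SS against AS, from all 6 libraries with its 95% interval (black), without SS replicate 3 (red triangles), without AS replicate 1 and SS replicate 3 (purple diamonds), and with libraries scaled on hepatocyte markers (blue squares). All 10 intervals hold 0, and the Nr5a2 value goes from 0.29 to -0.69 when SS replicate 3 is left out.

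PXR and CAR, the receptors for foreign compounds and toxic bile acids, overlapped between genotypes. Nr1i2 (chromosome 16, 38248323 to 38294824, minus strand) had 57.6, 106.0 and 107.9 CPM in AS and 85.6, 81.8 and 123.2 CPM in SS. AS replicate 1 was the lowest and SS replicate 3 the highest library. Its log2 ratio was 0.10 (SE 0.301, edgeR's adjusted p = 0.909), and it was below 0 when AS replicate 1 (-0.15) or SS replicate 3 (-0.12) was left out. Nr1i3 (chromosome 1, 171213970 to 171220701, plus strand) had 133, 165 and 164 CPM in AS and 149, 113 and 164 CPM in SS, with SS replicate 2 lowest (log2 ratio -0.12, SE 0.250, edgeR's adjusted p = 0.867). In GENCODE, 3304 of its 4414 exon bases lie on those of Tomm40l on the opposite strand, and the strand setting of the counting is not given in the sources used here, so its reads may include or lack some from that stretch.

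LXR alpha and the shared partner RXR alpha also overlapped. Nr1h3 (chromosome 2, 91184061 to 91202834, minus strand) had 205, 150.5 and 143 CPM in AS and 159, 187 and 128 CPM in SS, with a log2 ratio of -0.07 (SE 0.264, edgeR's adjusted p = 0.926). AS replicate 1 was highest and SS replicate 3 lowest, the reverse of Nr1i2. Rxra (chromosome 2, 27676440 to 27762957, plus strand), the partner that FXR, PXR, CAR and LXR alpha need to bind DNA, had 304, 334 and 318 CPM in AS. It had 273, 257 and 339 CPM in SS. SS replicates 1 and 2 were below and SS replicate 3 above every AS library, and the log2 ratio was -0.14 (SE 0.245, edgeR's adjusted p = 0.835). With 1 library left out it ranged from -0.28, without SS replicate 3, to -0.07.

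LRH-1 and HNF4A, the activators on which SHP acts, were set apart by SS replicate 3. Nr5a2 (chromosome 1, 136842571 to 136960448, minus strand) had 13.5, 16.3 and 22.9 CPM in AS replicates 1, 2 and 3. In SS it had 8.84, 12.9 and 42.3 CPM. SS replicates 1 and 2 were below every AS library, and SS replicate 3 was above all of them. The SS libraries had a CV of 85.6%, the widest of the 10 genes. The log2 ratio was 0.29 (SE 0.514, 95% interval -0.85 to 1.42, edgeR's adjusted p = 0.839) with all libraries and -0.69 without SS replicate 3 (edgeR's adjusted p = 0.356). Hnf4a (chromosome 2, 163506808 to 163572910, plus strand) had 396, 426 and 399 CPM in AS and 330.2, 378 and 670.1 CPM in SS. SS replicates 1 and 2 were again below, and SS replicate 3 above, every AS library, and its log2 ratio of 0.17 (SE 0.307, edgeR's adjusted p = 0.835) was -0.21 without SS replicate 3.

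FGFR4 and beta-klotho together receive the FGF15 signal. Fgfr4 (chromosome 13, 55152640 to 55168759, plus strand) had 35.7, 38.3 and 40.3 CPM in AS and 42.6, 41.6 and 29.7 CPM in SS. SS replicates 1 and 2 were above, and SS replicate 3 below, every AS library. The log2 ratio was -0.01 (SE 0.245, 95% interval -0.55 to 0.54, edgeR's adjusted p = 0.993). Klb (chromosome 5, 65348314 to 65384007, plus strand) had 21.4, 18.2 and 15.9 CPM in AS and 13.1, 14.1 and 22.7 CPM in SS, the opposite placing of SS replicate 3. Its log2 ratio was -0.15 (SE 0.305, edgeR's adjusted p = 0.858), and it was -0.45 without SS replicate 3. Per 100 Fgfr4 reads there were 60, 47.5 and 39.4 Klb reads in AS, and 30.65, 33.9 and 76.5 in SS.

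**Figure D3:**
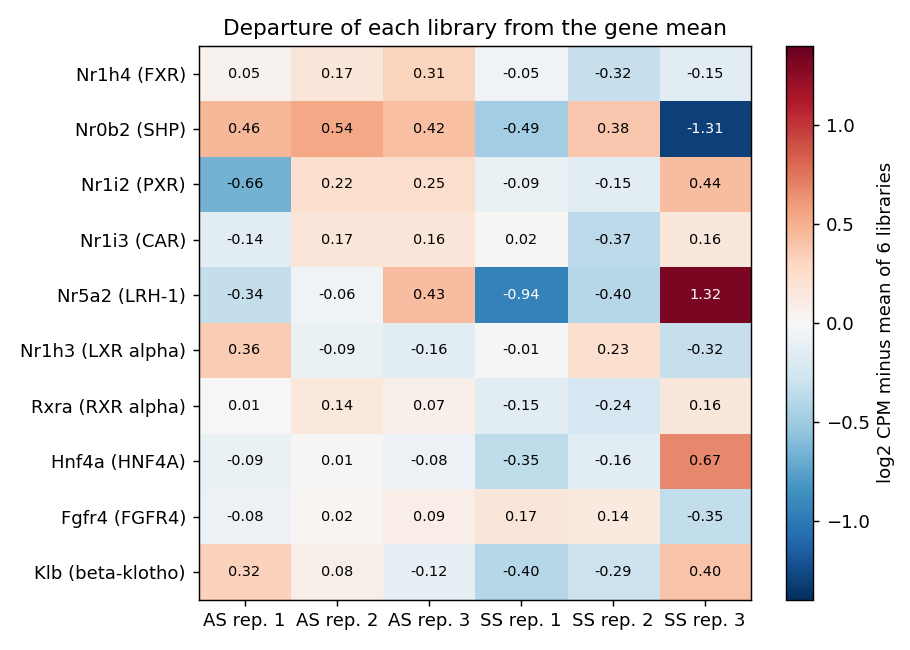
Departure of each library from the gene's mean, in log2 CPM over the 6 libraries, with red above and blue below the mean. SS replicate 3 is the highest library for 5 of the 10 genes and the lowest for 3, from -1.31 for Nr0b2 to 1.32 for Nr5a2 (log2 units).

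Across the 10 genes, SS replicate 3 departed most from the gene means. It was the highest library for Nr1i2, Nr5a2, Rxra, Hnf4a and Klb and the lowest for Nr0b2, Nr1h3 and Fgfr4, with a median absolute departure of 0.37 log2 units against 0.12 to 0.26 in the other libraries. Hepatocyte transcription factors outside this group were also high in that library: Prox1 stood at 84.7 CPM there and at 8.19 to 17.6 CPM in the others, and Onecut1 at 12.6 CPM against 0.483 to 3.57 CPM. These genes were not called (edgeR's adjusted p = 0.528 for Prox1 and 0.546 for Onecut1). Their log2 ratios went from 1.30 and 1.37 to -0.67 and -0.45 without SS replicate 3. The summed hepatocyte markers had 91400.5 CPM in SS replicate 3, close to the 91017 CPM of SS replicate 1.

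Without AS replicate 1 and SS replicate 3, 8 of the 10 genes had lower fitted values in SS, Nr1h3 (0.24) and Fgfr4 (0.09) being the exceptions, and the median log2 ratio of the 10 was -0.33 against 0.04 for all genes tested. None of the 10 was called in that fit, where 5.21% of genes were. The members' directions also hung on scaling. With library totals alone or with libraries scaled on the hepatocyte markers, the median of all genes moved from 0.08 to 0.36 and 0.42, and 8 of the 10 had higher fitted values instead of 3. A change of scaling factors moves the log2 ratios of all genes by nearly the same amount. The gap between the members' median and the median of all genes was therefore bound to stay alike under the 3 scalings (-0.18, -0.18 and -0.17). Its steadiness is no result about the members.

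Levels of different genes were compared per exon length, as TPM, the read count per exon base scaled to the same total in each library. In AS liver Hnf4a was the most abundant of the 10 at 175 ± 22.4 TPM (SD, n = 3), followed by Nr1h3 (135 ± 11.3), Nr1h4 (127 ± 25.1), Rxra (121 ± 17.4), Nr1i2 (75.1 ± 29.8), Nr0b2 (73.6 ± 8.41), Nr1i3 (72.8 ± 15.97), Fgfr4 (22.4 ± 3.81), Klb (8.32 ± 0.353) and Nr5a2 (6.27 ± 2.36). Of the 9 neighbouring pairs in that order, 4 had AS ranges that did not overlap: Hnf4a over Nr1h3, Rxra over Nr1i2, Nr1i3 over Fgfr4 and Fgfr4 over Klb. Those 4 kept their order in all 3 SS libraries. Nr1h3, Nr1h4 and Rxra could not be ranked beyond their spread, nor could Nr1i2, Nr0b2 and Nr1i3, nor Klb and Nr5a2. With the mean length of protein-coding transcripts in place of all exons joined, a choice made after seeing the data, Rxra came first (147 ± 20.3 TPM), before Hnf4a (129.9 ± 15.9 TPM), and Nr1i3 stood at 122 ± 26.1 TPM.

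**Figure D4:**
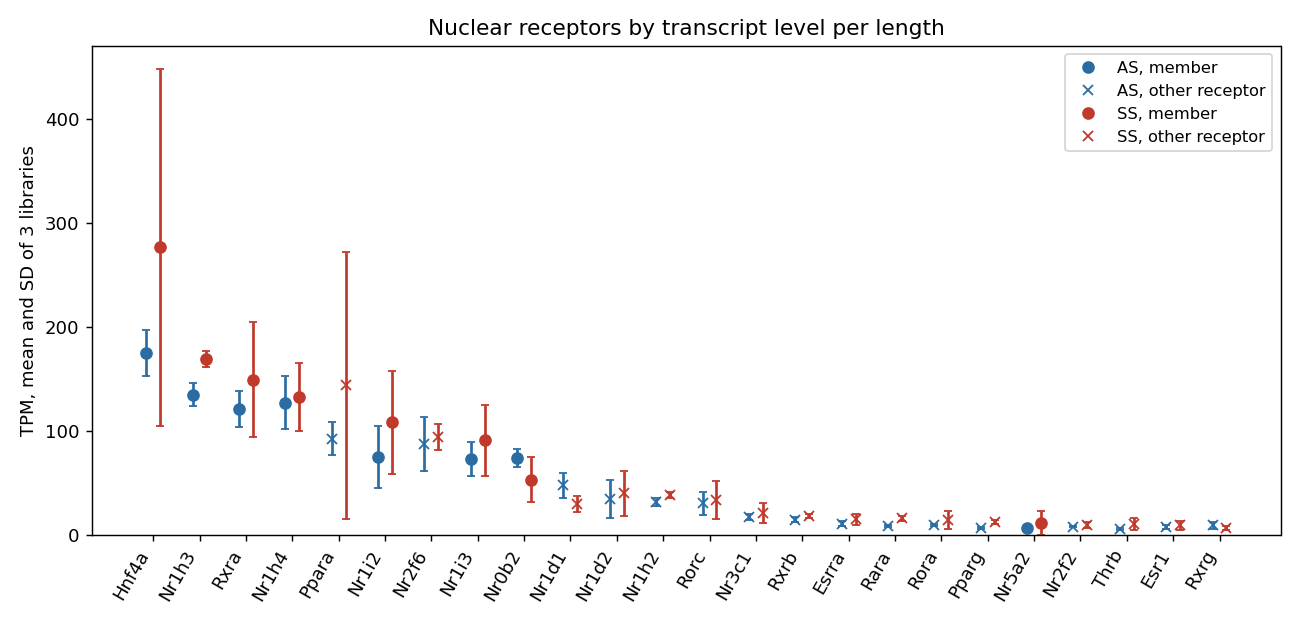
TPM (mean and SD of 3 libraries) of the 24 most abundant nuclear receptor genes, AS in blue and SS in red, with members as circles and other receptors as crosses. Hnf4a, Nr1h3, Rxra and Nr1h4 lead, and the wide SS bars of Hnf4a and Ppara reflect 1 high library, SS replicate 3.

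The 8 nuclear receptors made up most of the receptor messenger RNA in these livers. They held 62.6% to 65.3% of the TPM summed over the 49 mouse nuclear receptor genes in each library, and 7 of the 10 most abundant receptors were among them. The other 3 were Ppara, which senses fatty acids, Nr2f6, an orphan receptor, and Nr1d1, a clock repressor. Nr5a2, at place 20, was the exception. Of 36 nuclear receptor genes tested, 0 were called by edgeR over all genes tested, with 1 (Nr1d1) at an unadjusted p under 0.05 and none below an adjusted p of 0.208. Nr1d1 had 57.2, 73.3 and 78.4 CPM in AS and 29.2, 51.3 and 24.4 CPM in SS (log2 ratio -0.99, SE 0.309, edgeR's adjusted p = 0.208). Ppara had 158, 179.9 and 174 CPM in AS and 123.1, 96.4 and 327 CPM in SS, the same layout as Nr5a2 and Hnf4a. Of the 28 tested receptors that are not members, 16 had lower fitted values, against 5 of the 8 that are members.

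The genes whose library pattern lay closest to each member were sought in the 7995 genes whose mean reached 10 CPM, by the root mean square difference of log2 CPM, each gene centred on its own mean, over the 6 libraries. For Nr5a2 the closest was Mylip, an LXR-induced ubiquitin ligase (0.10 log2 units, where Nr5a2 itself varied by 0.72), then Etnk2, an ethanolamine kinase (0.22). Abcc3, an efflux pump of the basolateral membrane, came closest to Nr1h4 (0.049), then Dcaf5 (0.063). Nr0b2 was most like Sult1c2, a sulfotransferase (0.13), and Isoc2b (0.16). For Hnf4a they were Slc30a7, a zinc transporter (0.036), and Agfg2 (0.044), for Klb Fn1, fibronectin (0.051), and Hs3st3b1 (0.077), and for Fgfr4 Vps51 (0.051) and Msl1 (0.057). Ubr4 (0.049) and Slc15a4 (0.058) lay nearest to Nr1i2, Deptor (0.040) and Brd3 (0.0496) to Nr1i3, Ash2l (0.052) and Dus1l (0.054) to Nr1h3, and Birc3 (0.046) and Nsun2 (0.051) to Rxra. No member was among the nearest 2 of another member.

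Targets of the receptors were listed by symbol, and the FXR and LRH-1 lists hold Nr0b2 itself. Of 16 genes that FXR induces, 14 were tested and 0 were called (edgeR, 2 at an unadjusted p under 0.05, DESeq2's adjusted p of 0.126 and 0.152 for those), 9 had lower fitted values and the median log2 ratio was -0.33. With hepatocyte marker scaling, where the median of all genes was 0.42, the medians of the FXR, PXR and CAR, HNF4A and LRH-1 target lists were 0.01, -0.02, -0.15 and -0.31. That of the LXR target list was 0.45, and that of the hepatocyte markers themselves was -0.16. The 2 FXR targets with the lowest p encode the enzymes that conjugate bile acids to amino acids. Slc27a5, which makes bile acyl-CoA, had 1022, 1012 and 986.5 CPM in AS and 768, 582 and 312 CPM in SS (log2 ratio -0.86, SE 0.332, edgeR's adjusted p = 0.320). Baat, which then joins taurine or glycine, had 307, 293 and 282 CPM in AS and 225, 195 and 137 CPM in SS (log2 ratio -0.67, SE 0.266, edgeR's adjusted p = 0.336). In both genes every SS library was below every AS library, and the AS libraries were nearly level.

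Of the 3 genes that bile acids shut down through SHP and FGFR4, 0 were called by edgeR (2 at an unadjusted p under 0.05) and 2 had lower fitted values. Slc10a1, the sodium-dependent bile acid importer, had 771, 777 and 717 CPM in AS and 366, 275 and 360.4 CPM in SS. Its groups were far apart, and its log2 ratio of -1.18 (SE 0.254) missed the threshold (edgeR's adjusted p = 0.0655) but passed with DESeq2 (adjusted p = 2.23e-05) and without SS replicate 3 (edgeR's adjusted p = 0.0319). By edgeR the adjusted p was 0.151 without AS replicate 1, 0.122 without scaling factors and 0.254 with hepatocyte marker scaling (log2 ratio -0.82). Cyp8b1, the sterol 12-alpha-hydroxylase, had 475, 162 and 155 CPM in AS and 125, 129.7 and 51.3 CPM in SS (log2 ratio -1.37, SE 0.488, edgeR's adjusted p = 0.280). AS replicate 1 was far above the rest, and without it the change was -0.65. Cyp7a1, which sets the rate of synthesis, had 241, 114 and 127 CPM in AS and 141, 103 and 388 CPM in SS, and was again highest in SS replicate 3.

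**Figure D5:**
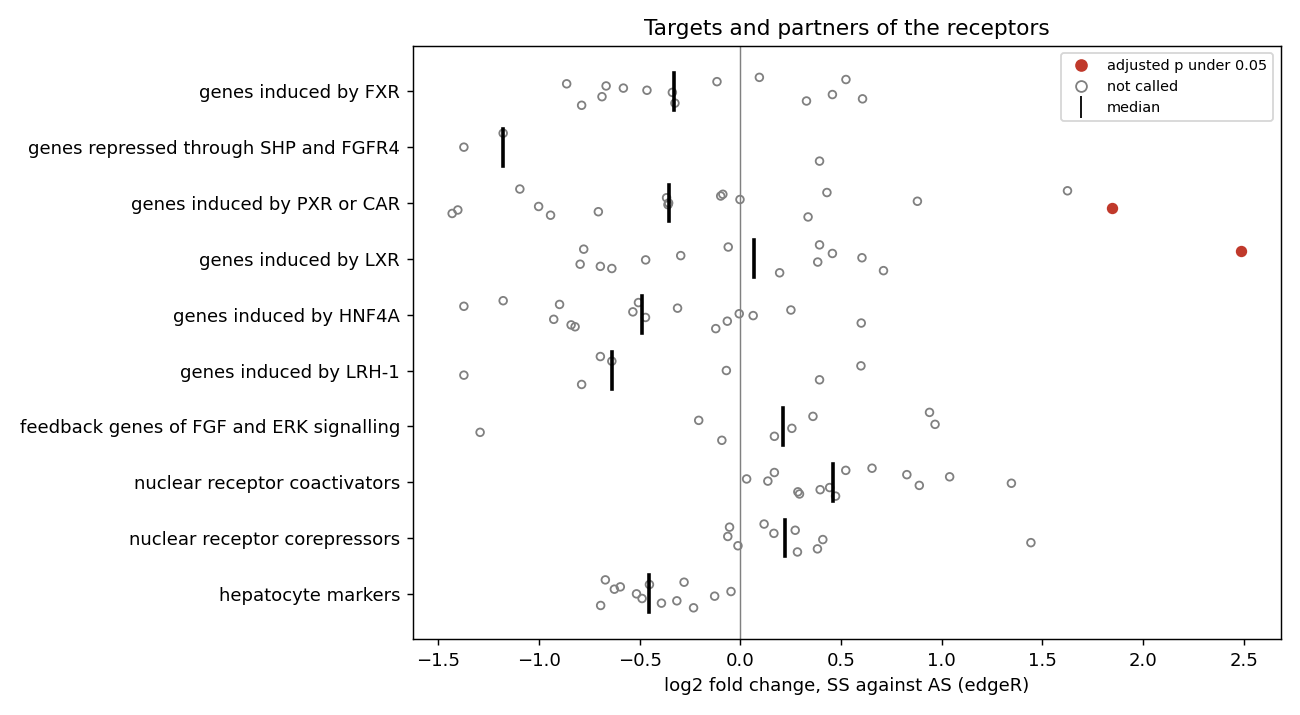
Log2 fold change, SS against AS, of each tested gene in the lists of receptor targets and partners and in the hepatocyte markers, with a bar at each list's median and called genes filled in red. The called genes are Cyp2c55 (1.84) among PXR and CAR targets and Lpl (2.49) among LXR targets.

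Of the PXR and CAR targets all 17 were tested, 1 was called, higher in SS, and 12 had lower fitted values (median log2 ratio -0.36). Cyp2c55, a cytochrome P450 strongly induced through PXR and CAR, had 7.49, 10.15 and 11.4 CPM in AS and 35.2, 40.25 and 28.8 CPM in SS, and rose by 1.84 on the log2 scale (SE 0.287, edgeR's adjusted p = 0.0169). It passed with DESeq2 as well, but in fits that left out a single library its adjusted p was 0.0504 to 0.116 for all except SS replicate 3. Cyp2b10, the usual readout of CAR, had 33.4, 91.7 and 87.2 CPM in AS and 29.8, 17.6 and 31.4 CPM in SS (log2 ratio -1.43, SE 0.390, edgeR's adjusted p = 0.146, DESeq2's adjusted p = 0.0149). Cyp3a11, the usual readout of PXR, had 4627, 3385 and 3296 CPM in AS and 4586, 4758 and 4935 CPM in SS (log2 ratio 0.34, SE 0.266, edgeR's adjusted p = 0.615). Without AS replicate 1 and SS replicate 3, 7 of the 17 were called lower and 2 higher, against 2.49% and 2.72% of all genes. These P450 genes belong to families of similar copies, whose reads the counting may drop or split. Cyp2b10 and Cyp3a11 were picked after their values were seen.

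Of 14 LXR alpha targets tested, 7 had higher and 7 lower fitted values, and 1 was called. The median log2 ratio was 0.07, and -0.38 without SS replicate 3. Lpl, lipoprotein lipase, which adult hepatocytes barely express and macrophages express strongly, had 101, 40.1 and 54.2 CPM in AS and 294, 617 and 183 CPM in SS. It rose by 2.49 on the log2 scale (SE 0.486, edgeR's adjusted p = 0.0462), and the call was lost with any library other than SS replicate 3 left out, and with limma-voom. SS replicate 2, which had the highest Lpl, also had the highest summed level of recruited macrophage markers, 587 CPM, of which Lyz2 held 460 CPM. Other markers of the list peaked in different libraries. Cd9 (62.9 CPM) and Ly6c2 (4.21 CPM) were highest in SS replicate 2. Gpnmb (41.6 CPM) and Mmp12 (20.7 CPM) were highest in SS replicate 3, and Itgax (9.50 CPM) and Ccr2 (8.31 CPM) in SS replicate 1. The match of the sum with Lpl did not extend to all libraries. AS replicate 1 and SS replicate 1 had sums of 238 and 231 CPM, with Lpl at 101 and 294 CPM. Lyz2 held 196 and 137 CPM of those sums, so the sum mainly followed Lyz2. The part of macrophages in the Lpl values was not tested.

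All 16 HNF4A targets were tested, 0 were called by edgeR (5 at an unadjusted p under 0.05), 13 had lower fitted values, and 8 lay lower in SS without overlap (9.04% of all genes did). The median log2 ratio was -0.49 beside -0.45 for the hepatocyte markers. Otc, a urea cycle enzyme, had 519, 618 and 641 CPM in AS and 357, 309 and 269 CPM in SS (log2 ratio -0.93, SE 0.254, edgeR's adjusted p = 0.147, DESeq2's adjusted p = 0.00362). Of the 7 LRH-1 targets, 0 were called by edgeR, with 2 at an unadjusted p under 0.05, and the median was -0.64.

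Around FGFR4, 8 of 11 genes for FGF receptors, ligands and klothos were tested and 0 were called by edgeR (1 at an unadjusted p under 0.05). Fgf15 and Kl had 0 reads in all libraries, and Fgf15 is a gene of the gut. Fgfr1, a receptor of mesenchymal cells, had 4.26, 5.15 and 4.91 CPM in AS and 9.63, 6.09 and 15.02 CPM in SS (log2 ratio 1.10, SE 0.404, edgeR's adjusted p = 0.294). Its log2 ratio was 0.70 without SS replicate 3, and the summed stellate cell markers were also higher in SS, at 482 to 759 CPM against 373 to 440 CPM in AS. Their part in the Fgfr1 values was not tested. Fgfrl1, a receptor without a kinase domain, had a log2 ratio of -0.48 (SE 0.290). The 17 signal transducers had 0 calls by edgeR (1 at an unadjusted p under 0.05) and a median of 0.23, which was 0.06 without SS replicate 3. Src, a tyrosine kinase, had 1.20 (SE 0.510), and Frs2, the docking protein of FGF receptors, 0.77 (SE 0.400), or 0.24 without that library.

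Of the feedback genes that FGF and ERK signalling switch on 8 were tested, 0 were called by edgeR (1 at an unadjusted p under 0.05), and 5 had higher fitted values. The median was 0.21, and -0.13 without SS replicate 3. Spry4, an inhibitor of receptor tyrosine kinase signalling, had 8.18, 17.4 and 13.4 CPM in AS and 5.81, 2.76 and 7.36 CPM in SS, without overlap (log2 ratio -1.29, SE 0.440, edgeR's adjusted p = 0.255). Egr1, an immediate early gene, had 23.7, 18.04 and 20.7 CPM in AS and 18.9, 72.5 and 28.2 CPM in SS, so that its log2 ratio of 0.94 (SE 0.439) was 0.17 without SS replicate 2.

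All 14 coactivators of the receptors had fitted values above 0, as did 56.3% of all genes tested, and their median log2 ratio was 0.46. By edgeR 0 were called (1 at an unadjusted p under 0.05). The median was 0.16 without SS replicate 3 and 0.07 without that library and AS replicate 1. Ppargc1b had 2.19, 2.74 and 2.70 CPM in AS and 6.73, 3.41 and 9.31 CPM in SS (log2 ratio 1.35, SE 0.482, edgeR's adjusted p = 0.283), and its relative Ppargc1a, which boosts FXR and HNF4A activity, had 0.89 (SE 0.409), or 0.41 without SS replicate 3. Of the 10 tested corepressors 0 were called by edgeR (0 at an unadjusted p under 0.05), and the median was 0.22, or 0.03 without SS replicate 3. Tbl1x, a part of the NCoR complex, had 1.44 (SE 0.688), which was 0.26 without SS replicate 3, where it had 18.2 CPM.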

How the data were processed

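Per the submitters' processing notes, the authors aligned liver RNA reads to mm10 with HISAT2 and counted them with HTSeq. The deposited files hold raw counts per gene symbol, 1 library each. Versions, annotation and strand setting are not given in the sources used here. The 5 HTSeq counter lines per file were left out of library sizes and tests. Reads outside annotated genes made up 53.9% of records in SS replicate 1 and 40.7% to 43.8% in the other 5 libraries.

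The low-count filter was filterByExpr, with a minimum count of 10 and a minimum total of 15. It left 12622 genes holding 99.8% of gene reads. SS (n = 3) was compared with AS (n = 3) by edgeR 4.0.16 (R 4.3.3) with TMM factors. The quasi-likelihood fit was robust, its F-test was two-sided, and p-values were adjusted by Benjamini-Hochberg over all genes tested. SEs were derived from the F statistic. CPM used the same factors. TPM was computed from the counts and GENCODE M21 exon lengths (mm10), with 23334 symbols found in GENCODE as written, and 648 more under a former name. Medians over gene lists carry no test.

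On counts simulated from these libraries (12622 genes, 200 changed, 5 runs), 8.2% of the 2-fold changes and 64.4% of the 4-fold changes were called, so a 2-fold change of a gene is seldom detectable. Intervals cover the spread between libraries.

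The genes and lists were chosen with earlier results of these data known. The text names all 10 members, from each other list up to 3 called genes or the 2 of lowest p, the 5 most abundant receptors, and the 2 genes closest in pattern to each member. Other named genes were chosen after their values were seen, and some genes that the rule takes are not reported here. Alternatives were other scaling factors, filters and tests (DESeq2 1.42.0, limma-voom from limma 3.58.1), a replicate block, libraries left out, and AS replicates 2 and 3 summed.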

Additional observations from a re-analysis of the deposited data

How the results depend on the processing

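None of the 10 receptor genes was called under any of the 18 alternatives. Of 180 refits of these genes, 154 kept the direction and 26 turned it. The range over fits that left out 1 library was -0.15 to 0.24 for Nr1i2, -0.24 to 0.011 for Nr1i3, -0.69 to 0.65 for Nr5a2, -0.23 to 0.095 for Nr1h3, -0.21 to 0.36 for Hnf4a and -0.10 to 0.13 for Fgfr4. It was -0.67 to 1.76 for Prox1, -0.45 to 2.05 for Onecut1 and -0.65 to 0.39 for Ppara. Without scaling factors the log2 changes of Nr1i3, Nr1h3, Rxra, Fgfr4 and Klb were 0.17, 0.20, 0.15, 0.25 and 0.16. Scaled on hepatocyte markers they were 0.22, 0.27, 0.20, 0.30 and 0.22. Upper-quartile factors gave 0.0092 for Fgfr4. When the pair AS replicate 1 and SS replicate 3 was dropped, Nr1i2 had -0.36, Nr5a2 -0.85, Nr1h3 0.24, Hnf4a -0.22, Fgfr4 0.094, Tbl1x -0.013, Prox1 -0.46 and Ppara -0.69, and limma-voom gave -0.12 for Ppara. The cause of these turns was not tested.

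The 122 calls over all genes (115 higher, 7 lower) became 217 (188 and 29) with no filter, 370 (276 and 94) with DESeq2, 31 (30 and 1) with limma-voom, 31 (31 and 0) with AS replicates 2 and 3 summed, and 662 (346 and 316) without AS replicate 1 and SS replicate 3. Genes called lower numbered 4, 1 and 0 with upper-quartile factors, no factors and hepatocyte scaling. Fits that left out 1 library called 22 to 99 genes, 22 to 85 higher and 0 to 15 lower. With the replicate number as a block, 460 genes were called (367 higher, 93 lower), Nr5a2 had -0.00031 and Ppara -0.12, and Nr0b2 had an adjusted p of 0.0949. Deviations of same-numbered libraries from their group means correlated at 0.06, -0.16 and 0.24. The highest correlation of each AS library with a differently numbered SS library was 0.29, 0.15 and -0.04. With n = 3 per group these values cannot settle whether the numbers pair the libraries, and the labels do not say. Depth limits Nr5a2 and Klb most, with as few as 67 and 99 reads in a library.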
